A study of Homo sapiens with 8 samples.

Results

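Chromatin accessibility was examined at 10 genes whose enzymes modify or crosslink collagen, taken from a named list: the lysyl oxidases LOX, LOXL1, LOXL2, LOXL3 and LOXL4, the transglutaminase TGM2, the lysyl hydroxylases PLOD1 and PLOD2, and the prolyl 4-hydroxylase subunits P4HA1 and P4HA2. Each gene was taken with its body and 50 kb on either side in the human genome build hg19. The 10 windows held 103 of the 75501 accessible sites found across the genome. ATAC-seq, in which a transposase inserts sequencing adapters into open chromatin, had been run on LX-2, a wild-type human line with hepatic stellate cell features. The cells grew on polyacrylamide hydrogels coated with fibronectin, either soft at about 2 kPa or stiff at about 40 kPa. They were harvested after 2 days (D2) or 4 days (D4), which gives 4 groups of 2 replicate libraries each, named by day and hydrogel (D2 soft and D2 stiff, D4 soft and D4 stiff). All libraries came from the same cell line, so that replicates measure the spread between cultures of 1 line, or only technical spread where they were not grown apart.

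Collagen is crosslinked in steps that begin inside the cell. Prolyl 4-hydroxylases hydroxylate proline so that the triple helix is stable, and lysyl hydroxylases hydroxylate lysine, which sets the kind of crosslink that can form. Outside the cell, lysyl oxidases convert lysine and hydroxylysine to aldehydes that react into covalent crosslinks, and transglutaminase 2 joins glutamine to lysine. Activated hepatic stellate cells are the main source of scar collagen in liver fibrosis, and crosslinking makes that matrix stiffer and harder to degrade.

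The sequences of 8 sites are shown because the results below turn on them: the promoters of PLOD1 and LOX, the distal sites of LOX, TGM2 and P4HA2 with the highest ranks, and the sites of LOXL1, TGM2 and PLOD2 that ranked highest in D2 stiff cells. The last 3 were chosen after their values were seen. Each sequence was read from the plus strand of GRCh37 within 100 bp of the summit of the best-ranked peak, and stretches annotated as untranslated exon were left out. Capitals mark matches, on either strand, to TGANTCA (AP-1), GGAATG (TEAD), GGGCGG (the GC box) or ACGTG (the core of the hypoxia response element), and matches could overlap.
PLOD1 promoter, chr1:11994648-11994750: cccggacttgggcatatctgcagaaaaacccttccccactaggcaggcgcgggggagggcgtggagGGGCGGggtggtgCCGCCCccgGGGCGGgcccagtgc
LOX promoter, chr5:121414109-121414203: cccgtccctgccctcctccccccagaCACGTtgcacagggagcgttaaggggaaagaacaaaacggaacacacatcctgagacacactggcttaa
LOX upstream site, chr5:121425384-121425584: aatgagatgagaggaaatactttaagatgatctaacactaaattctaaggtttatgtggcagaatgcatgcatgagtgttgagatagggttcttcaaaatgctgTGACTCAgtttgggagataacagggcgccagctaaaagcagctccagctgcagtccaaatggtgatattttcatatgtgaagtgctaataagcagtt
LOXL1 intron 1, chr15:74233508-74233708: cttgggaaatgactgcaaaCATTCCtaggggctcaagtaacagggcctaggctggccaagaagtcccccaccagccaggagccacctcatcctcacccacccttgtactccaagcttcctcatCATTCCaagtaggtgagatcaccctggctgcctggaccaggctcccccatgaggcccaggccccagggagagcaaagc
TGM2 intron 6, chr20:36772726-36772926: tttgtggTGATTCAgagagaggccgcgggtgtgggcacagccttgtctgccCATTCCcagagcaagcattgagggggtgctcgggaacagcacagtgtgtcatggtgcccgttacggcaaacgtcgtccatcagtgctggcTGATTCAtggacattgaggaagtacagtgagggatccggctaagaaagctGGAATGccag
TGM2 3′ end, chr20:36755572-36755710: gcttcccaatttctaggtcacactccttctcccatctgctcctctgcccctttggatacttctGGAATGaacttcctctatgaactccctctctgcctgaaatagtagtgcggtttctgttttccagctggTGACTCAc
PLOD2 intron 1, chr3:145849945-145850145: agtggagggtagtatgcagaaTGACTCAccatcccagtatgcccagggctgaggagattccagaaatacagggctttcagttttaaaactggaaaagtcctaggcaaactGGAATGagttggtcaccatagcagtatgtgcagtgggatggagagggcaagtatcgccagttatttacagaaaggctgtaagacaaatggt
P4HA2 intron 4, chr5:131551162-131551362: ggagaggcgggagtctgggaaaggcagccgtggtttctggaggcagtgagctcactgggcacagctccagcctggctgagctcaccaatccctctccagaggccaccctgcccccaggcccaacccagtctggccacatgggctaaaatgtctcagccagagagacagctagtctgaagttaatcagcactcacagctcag

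The TGM2 intron 6 sequence held 2 AP-1 and 2 TEAD matches, and the LOXL1 intron 1 sequence held 2 TEAD matches. AP-1 and TEAD are transcription factor families that respond to growth and mechanical signals. The TGM2 3′ end and PLOD2 intron 1 sequences each held 1 AP-1 and 1 TEAD match. None of the 4 motifs was in the P4HA2 intron 4 window, which ranked highest of all distal member sites. The LOX promoter window held 3 hypoxia cores, of which 1 lies in the stretch shown. A match describes the letters only and says nothing of whether a factor was bound.

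Across the members, 9 of 13 promoter sites (69.2%) held a GC box within 100 bp of the summit, against 44.4% of the 19998 promoter sites of the genome. An AP-1 match was in 1 of 13 (7.69%), against 16.5%, and a hypoxia core in 3 of 13 (23.1%), against 16.7%. Of the 72 member sites away from every promoter, 35 (48.6%) held an AP-1 match, 21 (29.2%) a TEAD match and 4 (5.56%) a GC box, against 46.9%, 21.8% and 5.84% of the 55503 such sites of the genome. The other 18 lay at promoters of other genes, and 13 of them (72.2%) held a GC box. These shares are descriptions and were not tested.

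The peak lists held 29789 to 72840 peaks. D2 soft replicate 1 had the shortest list, and the next shortest was D2 soft replicate 2 with 55754. A background solved from the peaks' fold enrichment and p-values gave an estimate of 0.780 fragments per kb in D2 soft replicate 1 and of 2.08 to 3.15 in the others, on the assumption that the shortest peak has the caller's fragment length. The part of depth in counts of peaks was not tested apart from list length. As a check of the cell type, promoter peaks (within 1 kb of an annotated start) were present in every library at 5 of 12 stellate cell or fibroblast markers, among them ACTA2, PDGFRB and COL1A1, and were absent from every library at COL3A1, DES, LRAT and DCN. The other 3 of that list, COL1A2, HAND2 and RELN, had one in 7, 6 and 6 libraries. They were in every library at 0 of 6 hepatocyte markers, with ALB and HNF4A at 0 libraries, at 0 of 3 endothelial and 0 of 3 epithelial markers, and at 1 of 4 immune markers, CD68. PECAM1 was not found under that symbol in the annotation and is not counted. Some of the others had one in part of the libraries, the endothelial markers KDR in 7 and CDH5 in 4, the epithelial markers EPCAM in 6 and CDH1 in 5, and the hepatocyte markers TTR and CYP3A4 in 2 each. The part of other cell types in the results was not tested. In bulk chromatin, fewer open cells and less open chromatin in each cell cannot be told apart.

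The deposited lists held 58 and 91 peaks in the 10 windows in D2 soft (replicates 1 and 2, an order kept throughout), 97 and 97 for D2 stiff, 97 and 82 for D4 soft, and 98 and 104 for D4 stiff. The stiff libraries held the most, level with 1 D4 soft library. With each list cut to the 29789 peaks of the shortest, the counts were 58 and 59, 57 and 60, 58 and 59, and 57 and 56. The day 2 groups then overlapped, and on day 4 the stiff libraries held 1 to 3 peaks fewer than the soft libraries.

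**Figure D1:**
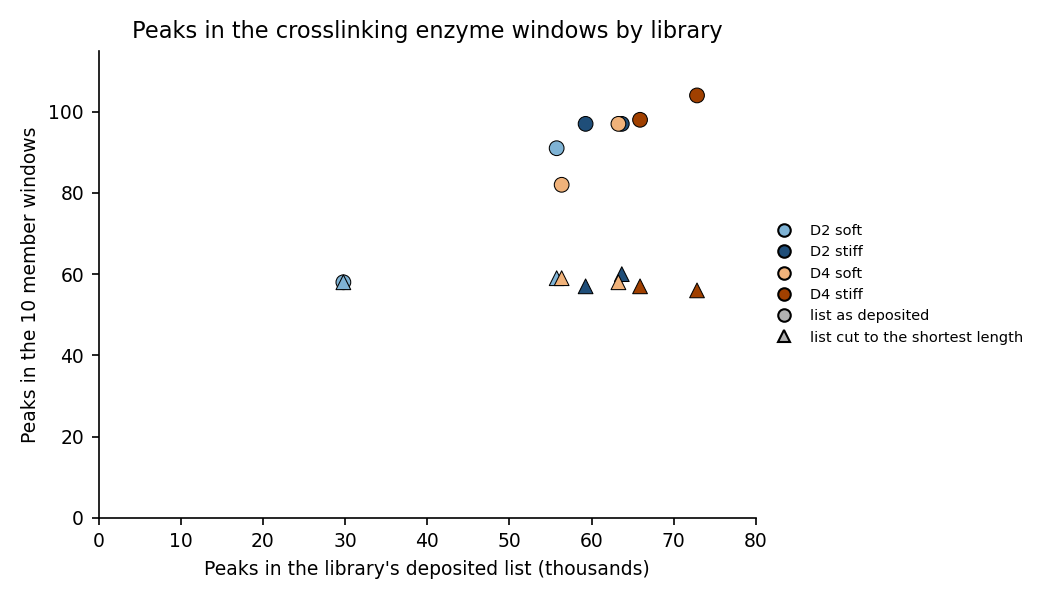
Peaks in the 10 crosslinking enzyme windows (vertical axis) against the number of peaks in the library's list (horizontal axis, in units of 1000 peaks), one symbol per library, coloured by group. Circles give the lists as deposited, from 58 to 104 peaks, and triangles the lists cut to the shortest length, from 56 to 60.

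Of the 103 member sites, 52 (50.5%) had a peak in every library, against 32.1% of all sites of the genome. Promoters made up 13 of them, 29 others lay in a member's gene body, 18 at the promoter of another gene in the window and 43 elsewhere in the flanks. Of the 14 sites found in 7 libraries, 12 lacked a peak only in D2 soft replicate 1, and among all such sites of the genome 85.4% did. The number of sites varied between genes. LOXL3 had 12.2 sites per 100 kb of window, TGM2 had 11.5 and LOXL1 had 11.1, above 99.4%, 99.0% and 98.7% of protein-coding genes, whose median was 3.95. P4HA1, with 3 sites in 189.8 kb, was the sparsest at 1.58.

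**Figure D2:**
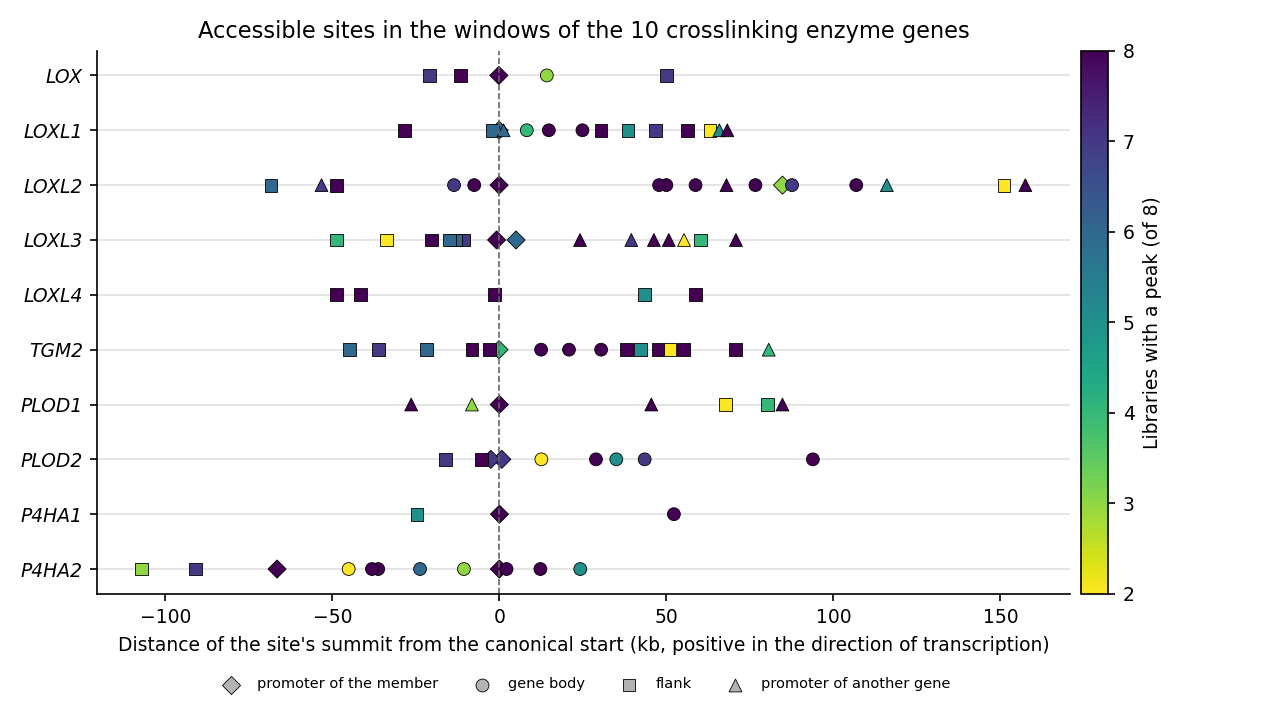
Position of the 103 sites by their summit's distance in kb from the canonical transcription start of each gene (0, dashed line), positive in the direction of transcription. Colour gives the number of libraries with a peak, of 8, and the symbol gives the kind of site. LOXL4 has no promoter symbol, and its nearest site lies at -1400 bp.

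A promoter peak was present in all 8 libraries at 6 of the 10 members (LOX, LOXL2, LOXL3, PLOD1, P4HA1 and P4HA2), against 47.2% of 20136 protein-coding genes. PLOD2 had one in 7 libraries, LOXL1 in 6, TGM2 in 4 and LOXL4 in 0. LOX, LOXL2 and P4HA1 kept theirs in 8 libraries with lists of equal length, and P4HA2 did at an alternative start. The canonical promoter of P4HA2 then had one in 4 libraries, the PLOD1 promoter in 7 and the main LOXL3 promoter site in 3. How strongly a peak stood out is given below as fold enrichment, the pileup at its summit over the local background of the same library, and as the percentile of that value within the library's own list, where 100 is the highest. Over the 13 promoter sites the median of the mean percentiles was 32.98, against 51.4 for all promoter sites of the genome. Over all 103 sites it was 49.5, against 43.7 for all sites. Ranked by the deposited −log10 p of each peak instead, the median was 49.8 for the member promoter sites, against 55.7 for the genome's. For all member sites it was 57.6, against 41.7.

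**Figure D3:**
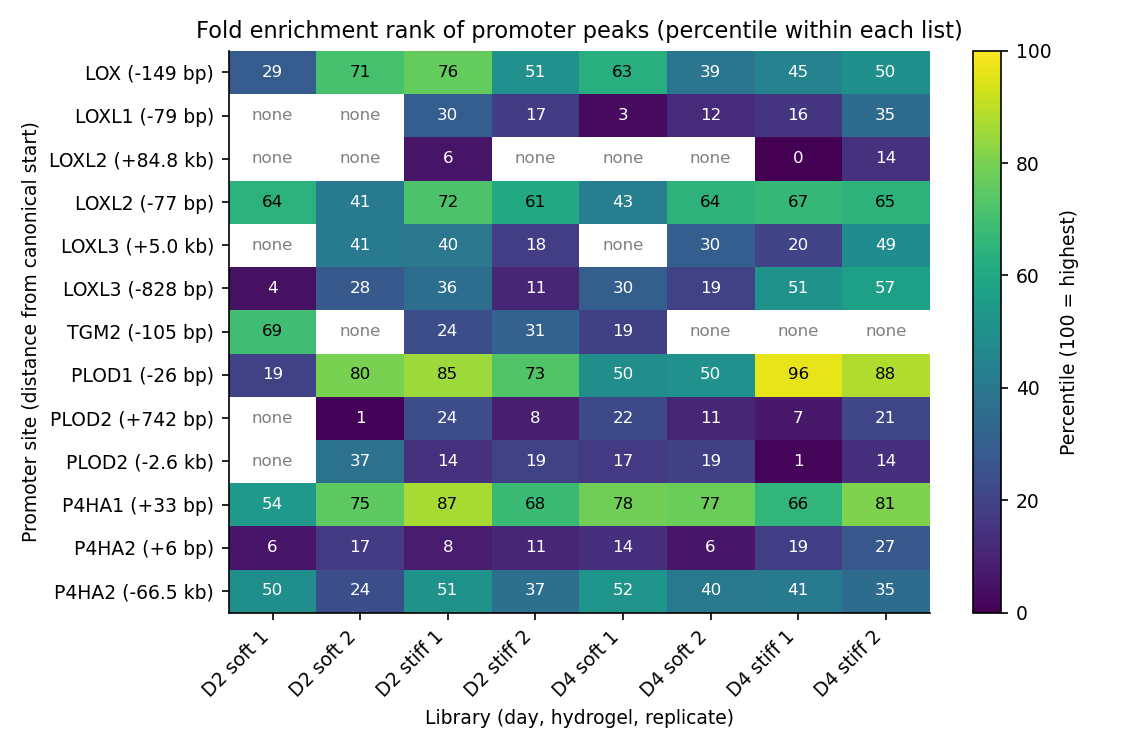
Fold enrichment percentile within each list for the 13 promoter sites (rows, with the summit's distance from the canonical start) in the 8 libraries (columns), with white cells where a library had no peak. PLOD1 and P4HA1 have the highest mean percentiles, 67.7 and 73.3, and the TGM2 promoter has a peak in 4 of the 8 libraries, none of them D4 stiff.

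LOX, the founding lysyl oxidase, had 5 sites. Its promoter site, chr5:121412036-121414475, had fold enrichments of 5.06 and 9.54 for D2 soft, 10.01 and 8.002 for D2 stiff, 8.31 and 5.97 for D4 soft, and 7.14 and 7.80 for D4 stiff, so that the groups overlapped. The site held 13 peaks over the 8 libraries. The tallest had its summit at -84 to -230 bp from the canonical start in 6 libraries, and at 1287 and 1181 bp in D4 soft replicate 2 and D4 stiff replicate 2, so that the values of those libraries come from another peak. The upstream site at -11530 bp (chr5:121425091-121425852), which carries 1 AP-1 match, ranked higher, at percentiles of 73.1 and 81.1, 82.5 and 86.7, 91.2 and 87.1, and 65.3 and 86.1. A site over the untranslated part of exon 7 (chr5:121399337-121400079) had a peak in both D4 stiff libraries and in D2 stiff replicate 1, with fold enrichments of 5.36, 8.37 and 7.20, and in no soft library. With lists of equal length it had one in 0 of 8 libraries.

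LOXL1, which is needed for elastic fibre assembly, had 14 sites. Its promoter site (chr15:74218519-74219230), which is shared with the antisense gene LOXL1-AS1, had no peak in either D2 soft library. Fold enrichment there was 5.86 and 5.17 for D2 stiff, 3.35 and 4.11 for D4 soft, and 4.88 and 6.34 for D4 stiff. Both stiff groups lay above D4 soft, and all fold enrichments were low in their lists, at percentiles of 2.81 to 34.8. By −log10 p the percentiles there were 14.6 to 76.1. Its distal site with the highest rank, at 30448 bp (chr15:74248832-74249842), was between fold enrichment percentiles 85.0 and 96.1 in every library.

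Intron 1 of LOXL1 held a site (chr15:74232822-74234609) with fold enrichments of 7.15 and 10.3 for D2 soft, 13.7 and 14.3 for D2 stiff, 9.82 and 10.4 for D4 soft, and 9.80 and 11.4 for D4 stiff. Both D2 stiff libraries were above the other 6. As percentiles, D2 stiff was at 95.3 and 95.0, and the others lay between 66.1 and 86.3.

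LOXL3, a lysyl oxidase with a role in palate and spine development, had 15 sites, 6 of them at promoters of other genes in a dense neighbourhood. Its main promoter site, chr2:74780960-74782442, is shared with the start of DOK1. Percentiles there were 4.43 and 28.0 for D2 soft, 36.2 and 10.7 for D2 stiff, 30.3 and 19.3 for D4 soft, and 51.1 and 56.9 for D4 stiff, so that D4 stiff was above every other library. The difference of D4 stiff from D2 stiff was 0.96 ± 0.50 (SE) on the score scale explained below, with an adjusted p of 0.926 in limma. From D4 soft it was 0.89 ± 0.50 (limma adjusted p = 0.942). The tallest peak had its summit at -828 bp in D4 stiff, at -153 and -129 bp in D2 stiff, and at -780 and -138 bp in D4 soft. The values compared thus come in part from different positions. A further promoter site in intron 4, at 4994 bp, was found in 6 libraries at percentiles of 18.3 to 48.6. The best-ranked distal site found in every library (chr2:74709268-74710708), at promoters of CCDC142 and TTC31, had a mean percentile of 93.5.

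LOXL4 was the member with no promoter peak within 1 kb of its single annotated start. The closest site (chr10:100028726-100029741), at -1400 bp, had a peak in every library, with percentiles of 29.1 and 60.3 for D2 soft, 66.3 and 66.9 for D2 stiff, 67.3 and 47.2 for D4 soft, and 82.6 and 71.3 for D4 stiff. The D4 stiff libraries ranked it highest. The best-ranked distal site found in every library, at -48674 bp (chr10:100076104-100076923), had a mean percentile of 78.6. A flank site at 43507 bp (chr10:99983575-99984711) had a peak in both D4 stiff and neither D4 soft library, and also in D2 soft replicate 2 and both D2 stiff libraries, but in 0 of 8 libraries with lists of equal length.

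LOXL2, which also acts on collagen IV, had 17 sites, the most of any member, 10 of them in every library. Its canonical promoter (chr8:23260884-23262076) had fold enrichments of 7.02 and 6.91 for D2 soft, 9.47 and 8.95 for D2 stiff, 6.55 and 7.95 for D4 soft, and 9.24 and 9.28 for D4 stiff. Every stiff library was above every soft library in fold enrichment, but in percentiles D2 soft replicate 1 (64.1) stood above D2 stiff replicate 2 (60.8), and D4 soft replicate 2 (64.5) was level with D4 stiff replicate 2 (64.6). The best-ranked distal site found in every library, in intron 3 (chr8:23202697-23203391), was at percentiles of 80.7 to 96.4. A second promoter site at an internal start in intron 8 (chr8:23176834-23177658) had weak peaks in D2 stiff replicate 1 and both D4 stiff libraries, at percentiles of 5.72, 0.217 and 14.4, and none in a soft library. With lists of equal length it too had one in 0 of 8 libraries.

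TGM2, the widely expressed tissue transglutaminase, had 16 sites. The promoter site (chr20:36793530-36793924) had a fold enrichment of 7.39 for D2 soft replicate 1, 5.47 and 6.31 for D2 stiff, and 4.77 for D4 soft replicate 1, and no peak in the other 4 libraries. Those without it were D2 soft replicate 2, D4 soft replicate 2 and both D4 stiff libraries. With lists of equal length only D2 soft replicate 1 and D2 stiff replicate 2 had it. The part of list length was not tested. Intron 6 held the strongest distal site (chr20:36772373-36773911), at percentiles of 82.4 to 98.0 in the 8 libraries.

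The site at the 3′ end of TGM2 (chr20:36755234-36756003) lies inside the neighbouring gene RPRD1B as well. Its fold enrichments were 5.86 and 9.83 for D2 soft, 10.3 and 15.2 for D2 stiff, 9.07 and 7.80 for D4 soft, and 8.03 and 9.45 for D4 stiff. D2 stiff replicate 2 stood highest, and both D2 stiff libraries were above the rest.

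PLOD1, a lysyl hydroxylase of the collagen helix, had 7 sites, 4 of them at promoters of other genes. Its own promoter (chr1:11994519-11995212) gave the largest difference between soft and stiff cells among the member sites. Fold enrichment was 4.60 and 10.6 for D2 soft, 11.3 and 10.3 for D2 stiff, 7.09 and 6.83 for D4 soft, and 13.8 and 12.5 for D4 stiff. On day 4 the stiff libraries, at percentiles of 96.4 and 88.0, did not overlap with the soft libraries at 49.5 and 50.4. On day 2 they did, with 19.2 and 79.8 in soft and 85.3 and 73.0 in stiff cells. The tallest peak had its summit at 82 and 137 bp from the canonical start in D4 soft, and at -26 and -19 bp in D4 stiff. The day 4 values thus come from different positions. This promoter had a peak in 7 libraries with lists of equal length, and none in D4 soft replicate 1. The best-ranked distal site found in every library, at the start of MFN2 (chr1:12039705-12040709), had a mean percentile of 86.2.

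PLOD2, the lysyl hydroxylase of the collagen telopeptides, had 9 sites. Its promoter site at the canonical start (chr3:145878071-145879595) had peaks in every library but D2 soft replicate 1, at percentiles of 0.832 to 23.8. The tallest peak had its summit at 742 and 754 bp from the start in D2 stiff, and between -177 and 55 bp in the other 5 libraries with a peak. A second start at -2558 bp also had peaks in 7 libraries, at percentiles of 1.44 to 37.4. By −log10 p the mean percentile was 49.8 there and 35.4 at the canonical start. The best-ranked distal site found in every library, at 93851 bp (chr3:145784902-145785304), had a mean fold enrichment percentile of 80.2.

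In intron 1 of PLOD2 a site (chr3:145849753-145850279) had fold enrichments of 5.89 and 10.2 for D2 soft, 13.5 and 11.0 for D2 stiff, 11.7 and 7.45 for D4 soft, and 9.58 and 7.96 for D4 stiff. Both D2 stiff libraries lay above both D4 stiff and both D2 soft libraries, and D4 soft overlapped with D2 stiff. A further intron 1 site, at 12574 bp, had peaks in the D2 stiff libraries alone, at percentiles of 6.74 and 22.1. With lists of equal length it had one in 0 of 8 libraries.

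P4HA1, a catalytic subunit of prolyl 4-hydroxylase, had the highest promoter rank of the members by mean percentile of fold enrichment. Percentiles were 53.9 and 75.1 for D2 soft, 87.0 and 68.1 for D2 stiff, 78.4 and 77.4 for D4 soft, and 65.8 and 80.5 for D4 stiff (chr10:74855347-74857158), and the groups overlapped on both days. Its intron 9 site (chr10:74803659-74804935), with 1 AP-1 match, had, in the same order, fold enrichments of 6.38 and 8.58, 7.64 and 12.5, 13.1 and 9.07, and 9.96 and 8.13. By percentile both D4 soft libraries (94.5 and 75.8) were above both D4 stiff libraries (73.3 and 54.0).

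P4HA2, the alternative catalytic subunit, had its best-ranked distal site above its canonical promoter. So had every other member with a promoter site except P4HA1, among them LOXL1 (mean percentiles of 92.2 and 18.7) and TGM2 (91.1 and 35.9). The comparison sets the best of several distal sites against the promoter, which favours the distal side. At P4HA1 the intron 9 site was at 69.2 and the promoter at 73.3. The canonical promoter of P4HA2 (chr5:131562921-131563652) had fold enrichments of 3.83 and 4.93 for D2 soft, 4.21 and 4.62 for D2 stiff, 4.48 and 3.77 for D4 soft, and 4.96 and 5.65 for D4 stiff, at a mean percentile of 13.3. The tallest peak there had its summit at 414 and -49 bp from the start for D2 soft, and at 235 and 232 bp for D2 stiff. For D4 soft it lay at 332 and 322 bp, and for D4 stiff at 59 and 6 bp. These values thus come in part from different positions. The intron 4 site shown above (chr5:131550860-131551529) reached 9.50 and 16.3, 14.0 and 16.2, 15.1 and 11.9, and 14.9 and 15.9, at a mean percentile of 96.6. By this measure it was the highest of the 103 sites. An alternative start at -66543 bp (chr5:131628963-131631350), shared with SLC22A4, had a mean percentile of 41.3. By −log10 p the mean percentiles were 44.2 at the canonical promoter, 87.0 at the alternative start and 95.1 at the intron 4 site.

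Sites with peaks in both libraries of one group and neither of another were then counted, with the share of all 75501 sites that did the same. On day 2, 9 member sites were open only on stiff hydrogel (genome 7.45%) and 0 only on soft (0.391%). On day 4 the counts were 4 (6.72%) and 0 (1.31%). Between days on soft hydrogel, 5 sites were found on D4 only (5.79%) and 0 on D2 only (0.403%). On stiff hydrogel, 2 were found on D4 only (5.35%) and 3 on D2 only (1.41%). No member site had peaks in all 4 stiff and 0 soft libraries (0.85% of the genome's sites) or the reverse (0.0172%).

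The 9 sites of the day 2 comparison belonged to 8 members, as 8.74% of the 103 sites, which is near the genome's share. The best ranked were in intron 10 of P4HA2 (chr5:131538882-131539643) and in the LOXL1 flank (chr15:74257022-74258375), and both also had peaks in D4 soft replicate 1 and both D4 stiff libraries. The third was a LOXL2 flank site at -68379 bp, which was found in both D4 soft and both D4 stiff libraries too. A P4HA2 site at -10613 bp had peaks in D2 stiff replicate 2 and both D4 stiff libraries, at percentiles of 27.6, 33.6 and 21.9, and in no soft library. Of the sites found on soft hydrogel on D4 only, the best ranked was a P4HA2 flank site at -107138 bp, at percentiles of 39.4 and 47.8 for D4 soft. On stiff hydrogel, a LOXL3 flank site at -48829 bp and a LOXL1 intron 1 site at 8209 bp appeared on D4 only. The TGM2 promoter, a LOXL3 flank site at 60196 bp and the PLOD2 intron 1 site at 12574 bp were found on D2 only. With lists of equal length the day 2 counts were 1 stiff-only (genome 4.06%) and 1 soft-only (3.24%) of 71 sites, and the day 4 counts were 4 (2.996%) and 3 (2.81%). Between days they were 1 D4-only (3.16%) and 1 D2-only (2.70%) on soft hydrogel, and 3 (2.75%) and 3 (2.59%) on stiff hydrogel. None of these sites had the same pattern in the lists as deposited, with 0 shared in each of the 8 counts. The 4 sites then stiff-only on day 4 were the promoters of LOXL1, LOXL3 and P4HA2 and a P4HA2 site at -23735 bp, and the P4HA2 site at -10613 bp had a peak in 0 of 8 libraries. A comparison of 2 against 2 libraries cannot give an exact permutation p below 0.333, and no p-value was computed for these counts.

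Signal was compared at the 24246 sites of the genome with a peak in every library, 52 of them member sites. Fold enrichment was ranked over these sites within each library, turned into normal scores and fitted with limma with 4 group means. A score difference of 1 is 1 SD of a library's sites. At an adjusted p under 0.05, 0 of 52 member sites were called in any of the 6 comparisons. The genome had 1 call for D2 stiff against D2 soft (0.00412%), 2 for D4 stiff against D4 soft (0.00825%), 2 for stiff against soft over both days (0.00825%) and 0 (0%) in the other 3 comparisons.

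At an unadjusted p under 0.05, 2 member sites passed for D2 stiff against D2 soft (genome 7.65%), 4 for D4 stiff against D4 soft (5.35%), 0 for D4 soft against D2 soft (7.07%), 4 for D4 stiff against D2 stiff (5.04%), 1 for stiff against soft over both days (7.72%) and 0 for the interaction of stiffness and day (5.27%). As shares of the 52 sites these were 3.85%, 7.69%, 0%, 7.69%, 1.92% and 0%. The median difference over the members was 0.01, -0.16, -0.04, -0.15, -0.08 and -0.02 in that order, and the sites with a higher score in the first-named group numbered 26, 21, 23, 22, 17 and 26 of 52. Over both days, 32.7% of member sites were thus higher in stiff cells, against 48.5% of all sites.

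**Figure D4:**
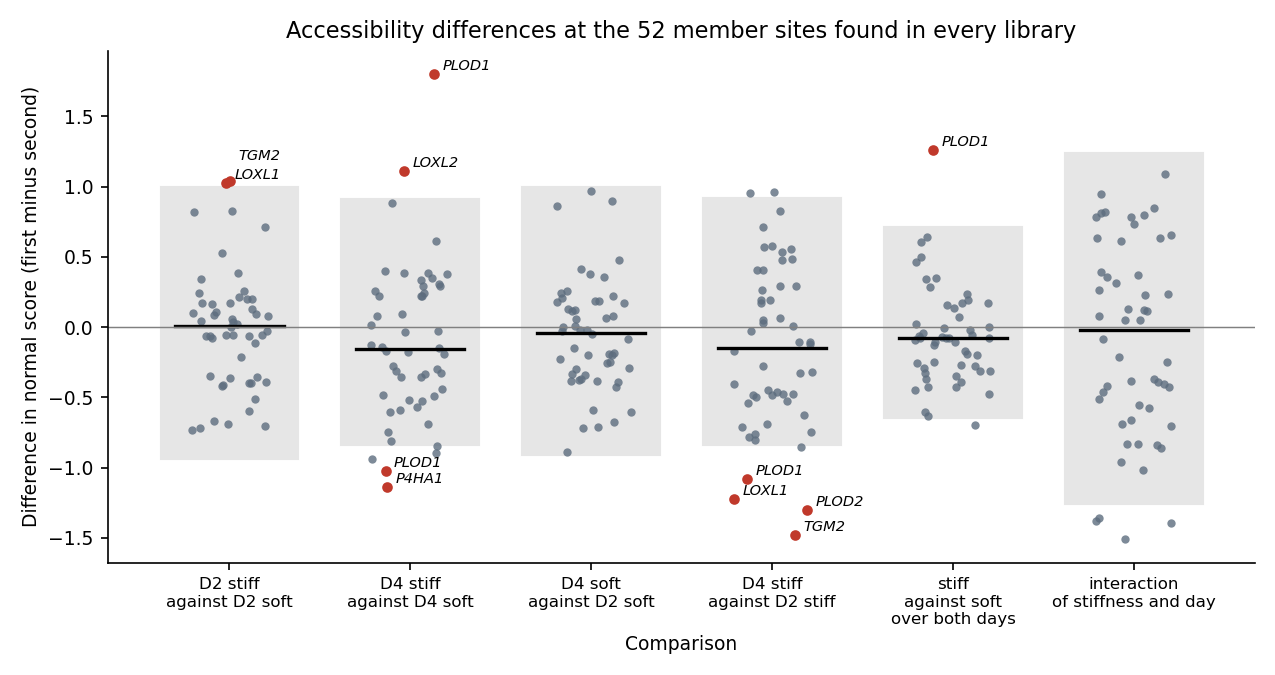
Difference in normal score (vertical axis, first-named group minus second) at the 52 member sites in each of the 6 comparisons, one point per site, with a black line at the median. Grey boxes span the 5th to 95th percentile of all 24246 sites, and named red points have an unadjusted p under 0.05, though 0 pass the adjusted threshold. The PLOD1 promoter stands highest, at 1.80 in the D4 comparison.

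The PLOD1 promoter was 1.80 ± 0.53 (SE) higher in D4 stiff than in D4 soft cells (limma adjusted p = 0.879). Over both days it was 1.26 ± 0.37 higher in stiff cells (limma adjusted p = 0.410). The value over both days rested in part on the D2 soft libraries. Without D2 soft replicate 2 the difference was 1.63 and a call (limma adjusted p = 0.0428), and without D2 soft replicate 1, the library with the shortest list, it was 0.81 (limma adjusted p = 0.631). Over the alternatives the limma adjusted p ran from 0.0428 to 0.88. An upstream site of the PLOD1 window, at the start of RNU5E-1 (chr1:11967883-11969925), went the other way on day 4, at -1.02 ± 0.50 (limma adjusted p = 0.921).

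For D2 stiff against D2 soft, the 2 sites under 0.05 were LOXL1 intron 1 at 1.02 ± 0.48 (limma adjusted p = 0.628) and the TGM2 3′ end at 1.04 ± 0.51 (limma adjusted p = 0.649). Both had lower scores in D4 stiff than in D2 stiff cells. The differences were -1.22 ± 0.48 at LOXL1 and -1.48 ± 0.51 at TGM2, and PLOD2 intron 1 was at -1.30 ± 0.52, with a limma adjusted p of 0.926 for each. The remaining site under 0.05 between D4 stiff and D2 stiff was the RNU5E-1 start in the PLOD1 window, at -1.08 ± 0.50 (limma adjusted p = 0.926). These comparisons share the D2 stiff libraries. The TGM2 values rested on D2 stiff replicate 2, without which the day 2 difference was 0.38 and the difference between days -0.82, against 1.69 and -2.13 without D2 stiff replicate 1. PLOD2 was at -0.81 without D2 stiff replicate 1, and LOXL1 stayed between 0.97 and 1.04 on day 2 when each library was left out. The interaction of stiffness and day, which sets the day 4 difference against the day 2 difference, was -1.36 ± 0.67 at LOXL1, -1.39 ± 0.72 at TGM2 and -1.51 ± 0.74 at PLOD2, with a limma adjusted p of 0.920 for each.

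**Figure D5:**
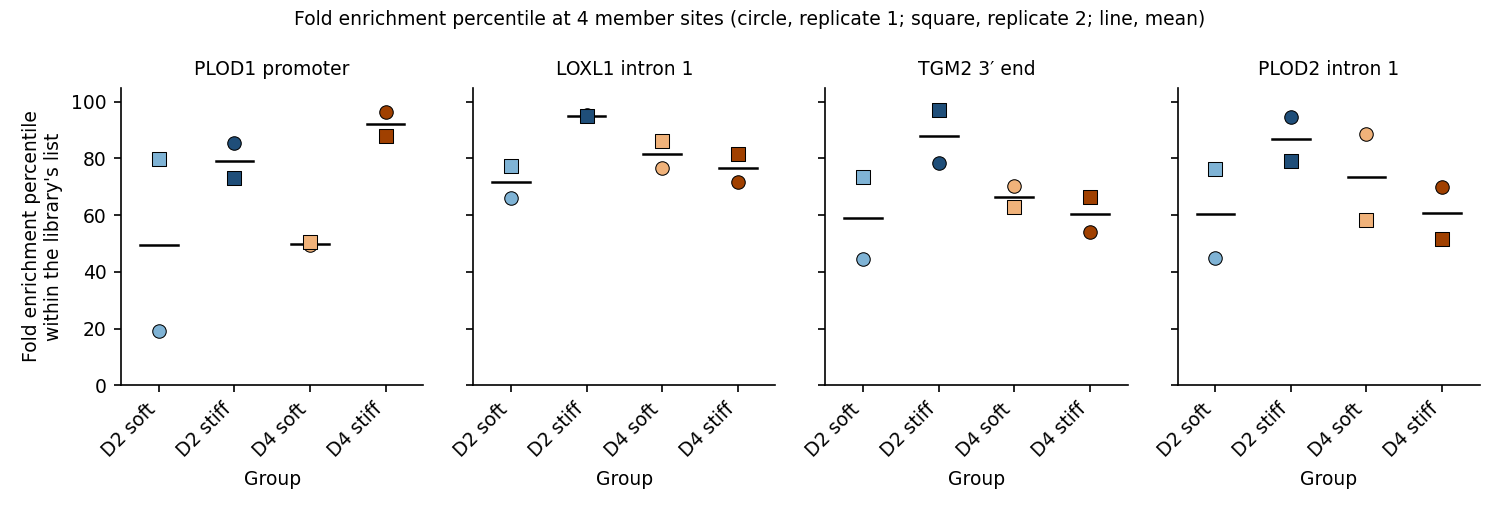
Fold enrichment percentile within the library's list (vertical axis) at the PLOD1 promoter, LOXL1 intron 1, the TGM2 3′ end and PLOD2 intron 1, by group, with circles for replicate 1, squares for replicate 2 and a line at the mean. The D4 stiff libraries are highest at PLOD1 (96.4 and 88.0), and the D2 stiff libraries are highest at LOXL1 (95.3 and 95.0).

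In the D4 comparison the P4HA1 intron 9 site was lower in stiff cells, at -1.14 ± 0.53 (limma adjusted p = 0.921), and the fourth site under 0.05 was the promoter of CHMP7 at the edge of the LOXL2 window, at 1.11 ± 0.54 (limma adjusted p = 0.921). The P4HA1 difference was -0.62 without D4 soft replicate 1 and -1.63 without D4 soft replicate 2, and the CHMP7 difference was 0.22 without D4 stiff replicate 1 and 2.01 without D4 stiff replicate 2. D4 soft against D2 soft had 0 member sites under 0.05. The largest difference there was 0.97 ± 0.48, at a LOXL4 flank site at -41511 bp (limma adjusted p = 0.698).

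Promoters of other genes of collagen modification and processing were listed for comparison. Of 24 such genes, 17 had a promoter peak in every library, 5 in some and 2 (P4HA3 and ADAMTS2) in none. BMP1, the procollagen C-proteinase, had the highest mean percentile at 97.6, and P4HB, the subunit shared by the prolyl 4-hydroxylases, was at 91.7. PCOLCE2, an enhancer of procollagen processing, had a promoter peak in all 4 stiff and 0 of 4 soft libraries, at a mean percentile of 35.2, but with lists of equal length it had one in 0 of 8 libraries. Of the 7 other genes of the transglutaminase family, 0 had a promoter peak in every library and 5 in none, and F13A1, the coagulation factor XIII A chain, had one in 7. With lists of equal length F13A1 had one in 4 of 4 stiff and 0 of 4 soft libraries, a value chosen after it was seen. In the lists as deposited it had one in 3 of 4 soft libraries too. Of all sites of the genome, 0.85% had peaks in every stiff and no soft library as deposited, and 0.279% with lists of equal length.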

How the data were processed

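ATAC-seq of 8 LX-2 libraries was analysed from the peak list of each. The submitters' processing notes name Trim Galore, Bowtie2 2.4.1, Picard, bedtools 2.24.0 and MACS2, and per the study's methods the authors mapped reads to hg19 and called peaks in each library at a q-value up to 0.05. The fold enrichment that the authors deposited is a ratio of summit pileup to local background. The deposited −log10 p and −log10 q values refer to the same background, and the score deposited by the authors was not used. Values are comparable within a list, so ranks were compared. No reads were used, so the authors' DiffBind and DESeq2 analysis was not repeated, and depth was only estimated, from the background behind the deposited values.

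Coordinates are 1-based on hg19 (GRCh37). All peaks lay within the reference lengths of 24 chromosomes. Genes came from GENCODE release 44 on that build. The canonical start was that of the annotation's canonical transcript. Peaks sharing 1 bp or more were merged into sites, and a site had to hold peaks of 2 or more libraries. A library's value at a site is its peak with the highest fold enrichment there. A promoter site lay within 1 kb of any annotated start of the gene. Normal scores of ranks were fitted with limma 3.58.1 (R 4.3.3) with Benjamini-Hochberg adjustment over all 24246 sites, after tests on simulated data. Tables were made with Python 3.11.15, pandas 2.3.3 and scipy 1.17.1.

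Groups came from the sample labels. The members, lists and motifs were chosen with earlier results of these data known. Named were all members, every promoter site, each member's best-ranked distal site in the most libraries, any called site and up to 3 best-ranked sites of each presence pattern. Sites with an unadjusted p under 0.05 and the LOXL4 site closest to its start were added after their values were seen. Alternatives were lists of equal length, a stricter q, other windows, promoter radii and overlaps, ranks of −log10 p, quantile-normalised log2 fold enrichment, separate fits, a replicate block, sites in at least 6 libraries and leaving out each library.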

Additional observations from a re-analysis of the deposited data

Results flagged for a closer look

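Within the 4 soft and the 4 stiff libraries, the number of peaks in the member windows, the rank of member peaks and the fold enrichment at promoter sites found in every library were searched for a library set apart from the others, by Dixon's ratio at its 95% critical value for 4 values. Of 40 such groups 8 were set apart, where chance gives about 1 in 20, and most rest on small counts with ties. Among the stiff libraries, D4 stiff replicate 2, which has the longest list, had 104 member peaks, 21 peaks in the LOXL2 window, 9 in the PLOD2 window and 2 in the P4HA1 window. D4 stiff replicate 1 had 6 peaks in the LOXL4 window, and D2 stiff replicate 1 had 16 in the TGM2 window. Among the soft libraries, D2 soft replicate 1, which has the shortest list, had 10 peaks in the LOXL2 window, and D2 soft replicate 2 had 6 in the LOXL4 window. The part of list length in these values was not tested.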

How the results depend on the processing

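Presence counts depended on the lists. With lists of equal length, 1 member site was stiff-only (genome 4.06%) and 1 soft-only (3.24%) on day 2, 4 were stiff-only (2.996%) and 3 soft-only (2.81%) on day 4, and 1 was D4-only and 1 D2-only on soft hydrogel, with 0 sites shared with the lists as deposited in each count. A window of 10 kb held 58 member sites, with 5 stiff-only on day 2, 1 D4-only on soft hydrogel and 1 D4-only on stiff hydrogel. A promoter radius of 2 kb gave 21 promoter sites. Members with a promoter site in every library numbered 4 to 8 over the alternatives, against 6 in the lists as deposited. Leaving out each library in turn gave 9 to 28 stiff-only and 0 to 2 soft-only sites on day 2, 4 to 14 and 0 to 4 on day 4, 5 to 21 D4-only and 0 to 3 D2-only sites on soft hydrogel, 2 to 8 and 3 to 5 on stiff hydrogel, and 0 to 2 sites in every stiff and no soft library. The highest counts on day 2 (28) and between days on soft hydrogel (21) came without D2 soft replicate 2, which leaves the shortest list alone in its group, and the 14 on day 4 came without D4 soft replicate 1. With 1 library left in a group, fewer libraries must carry or lack a peak, and limma then assumed that the lone library varies like the others. The number of member sites called stayed at 0 in each alternative and comparison, except that it was 0 to 1 over both days when each library was left out, with the PLOD1 promoter called without D2 soft replicate 2. With the replicate block, 0 member sites were called in each comparison, and the PLOD1 promoter kept a D4 difference of 1.80 (limma adjusted p = 0.859). The deviations of same-numbered libraries correlated at -0.04 to 0.08 between groups. They were taken from rank scores, in which a shift common to a whole list cannot show. The labels do not say whether same-numbered replicates were grown or processed together, and these values cannot decide it. The sites named for an unadjusted p under 0.05 kept their direction in every alternative, but leaving out 1 library moved 6 of the 11 differences by over 1.5 times, as given beside their values. A separate fit was not run for both days together or the interaction, which need all 4 groups. The planned stricter overlap with the merged site drops no peak, since each peak lies inside its merged site, so overlap with the best-ranked peak was used, an alternative chosen after seeing the data. With 2 libraries a group and a shallow D2 soft replicate 1, small differences were not detectable, and large ones could be missed too. The largest member difference, 1.80 at the PLOD1 promoter on day 4, was not called with all libraries in the fit (limma adjusted p = 0.879).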
